A study of Mus musculus with 12 samples.

Results

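The genes described here are 10 regulators of spermatogonia, the germ cells that found and feed sperm production. They were taken by symbol from the gene rows of the deposited count table, and all 10 were found among its 20620 genes. *Gfra1*, *Etv5*, *Id4*, *Zbtb16*, *Nanos2* and *Nanos3* are known from undifferentiated spermatogonia, and *Dmrt1*, *Sohlh1*, *Sohlh2* and *Kit* from the passage to differentiating spermatogonia. They were chosen by name and role, with earlier results of these data known.

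The study asked whether the retrotransposon LINE-1, when freed from control in male germ cells, alters the translation of other mRNAs. Whole testes of C57BL/6 mice at postnatal day 16 were sampled from *Mael*-/- animals, which lack Maelstrom, a protein needed to make the small RNAs that silence transposons, and from *Mael*+/- controls, which keep 1 intact allele. Total RNA and ribosome footprints, the stretches of mRNA shielded by ribosomes, were sequenced from each of 3 extracts per genotype, which gave 12 libraries in 4 groups of 3. All testes were collected in cycloheximide, which stalls ribosomes on the mRNA, and all libraries came from whole tissue with no sorting of cells. The controls carry a *Mael* mutation too, so no library stands for a wild-type testis. The study calls the replicates biological, and the labels do not say whether an extract pooled animals.

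Spermatogonia divide along the basal wall of the seminiferous tubule, in contact with Sertoli cells. Glial cell line-derived neurotrophic factor from Sertoli and peritubular cells binds GFRA1 and the kinase RET on undifferentiated spermatogonia and sustains transcription factors of self-renewal such as ETV5 and ID4. Retinoic acid then drives the switch to differentiating spermatogonia, which carry the receptor KIT and later enter meiosis.

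On the GRCm38 assembly, the members lie on 9 chromosomes. *Gfra1* (chromosome 19, 58235581 to 58455946, minus strand) and *Dmrt1* (chromosome 19, 25505618 to 25604328, plus strand) share one. *Etv5* lies on chromosome 16 (22381313 to 22439570, minus strand), *Id4* on chromosome 13 (48261116 to 48266028, plus strand) and *Zbtb16* on chromosome 9 (48651797 to 48836225, minus strand). *Nanos2* is a gene of 1 exon on chromosome 7 (18987524 to 18988962, plus strand), and *Nanos3* lies on chromosome 8 (84173733 to 84176552, minus strand). *Sohlh1* lies on chromosome 2 (25842995 to 25847248, minus strand), *Sohlh2* on chromosome 3 (55182044 to 55209957, plus strand) and *Kit*, with 21 exons, on chromosome 5 (75574987 to 75656722, plus strand). Exons of *Gfra1* and *Id4* overlap *Gm10007* and *A330033J07Rik* on the opposite strand. The study made its RNA libraries with a stranded kit, but whether strand was used in counting is not given in the sources used here. Whether the RNA counts of *Gfra1* and *Id4* include reads of the overlapping genes is therefore not known.

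Gene counts summed to between 13697267 and 27462358 in the RNA libraries and between 7609932 and 13233565 in the footprint libraries. *Mael* had 3800 to 5045 RNA counts in the *Mael*+/- libraries and 1, 2 and 0 in the *Mael*-/- libraries, and 660 to 1294 against 0, 0 and 7 footprint counts, so each library matched its label. Levels below are in CPM, the usual unit of counts corrected for library size, here with TMM factors. *Mael*+/- extract 1 stood apart: its 10 pachytene spermatocyte markers summed to 861 CPM in RNA and 1022 CPM in footprints, against 247 to 331 and 255 to 357 in the other extracts. Germ cell markers (*Ddx4*, *Dazl*, *Tex14*, *Rnf17*) were also highest there, at 1580 CPM in RNA. The 10 members summed to 697 to 790 CPM in *Mael*+/- and 680 to 712 CPM in *Mael*-/- RNA, and to 699 to 843 and 715 to 733 CPM in footprints, with *Mael*+/- extract 1 inside these ranges or at their lower end. Markers of every cell type of the testis that was listed were detected, led by the Sertoli gene *Clu* at 4745 ± 344 CPM (SD, n = 3) in *Mael*+/- RNA.

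**Figure D1:**
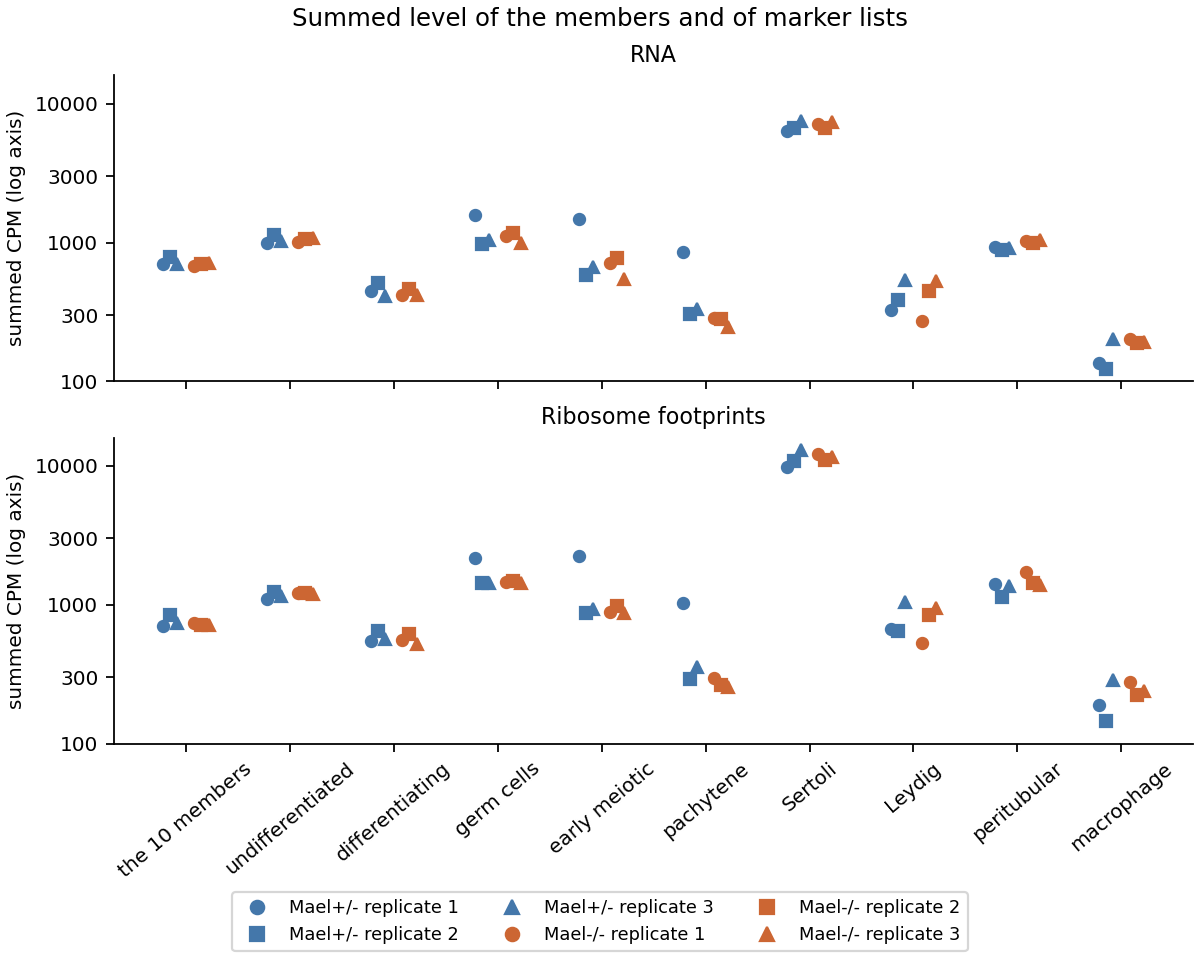
Summed CPM (log axis) of the 10 members and of lists of marker genes, in each RNA library (top) and footprint library (bottom), with a symbol for each replicate. *Mael*+/- replicate 1 lies above every other library for pachytene, early meiotic and germ cell markers, while the sums of the members and of the spermatogonial lists lie close together.

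The genotypes were compared in RNA, in footprints, and in how far footprints moved beyond RNA, called translation efficiency here. None of the 10 genes passed the test in any of these contrasts. In RNA, 0 of 10 members passed an adjusted p of 0.05 in edgeR, against 0.116% of all 14685 genes tested, and 0 had an unadjusted p under 0.05, against 5.4%. In footprints, 0 of 9 members tested passed, against 0.0593% of 13500 genes, and 1 (*Sohlh2*) had an unadjusted p under 0.05, against 4.33%. In translation efficiency, 0 of 9 passed, against 0.0% of 13448 genes, and 0 had an unadjusted p under 0.05, against 0.402%. This fit did not pair the RNA and footprint libraries of an extract. With so few genes below that p, 0 of 9 says little about the members. DESeq2 also called 0 members in each contrast, against 66 of 17742 genes in RNA, 26 of 17434 in footprints and 0 of 18024 in translation efficiency. At an unadjusted p under 0.05 DESeq2 had 0, 1 and 0 members, against 800, 530 and 49 of these genes. *Nanos2* had too few footprints for the filter on low counts and was tested by edgeR in RNA only.

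The intervals bound how large a difference these libraries could have missed. The 95% confidence interval of the log2 fold change (*Mael*-/- over *Mael*+/-) lay within 1 on either side of 0 for 9 of 10 members in RNA, for 9 of 9 in footprints and for 9 of 9 in translation efficiency. The exception was *Nanos2*. The median log2 fold change of the members was -0.04 in RNA, -0.05 for footprints and -0.02 for translation efficiency, against 0.00, -0.01 and 0.00 over all genes tested. In RNA, 4 members had a positive and 6 a negative fold change, and in footprints 2 and 7. Libraries of the genotypes did not overlap for 1 of 10 members in RNA (*Nanos2*), against 10.3% of genes, for 2 of 9 in footprints (*Id4* and *Sohlh2*), against 9.09%, and for 0 of 9 in the footprint to RNA ratio, against 6.27%. These shares rest on 9 or 10 genes. In whole testis, fewer spermatogonia and less RNA in each cannot be told apart.

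**Figure D2:**
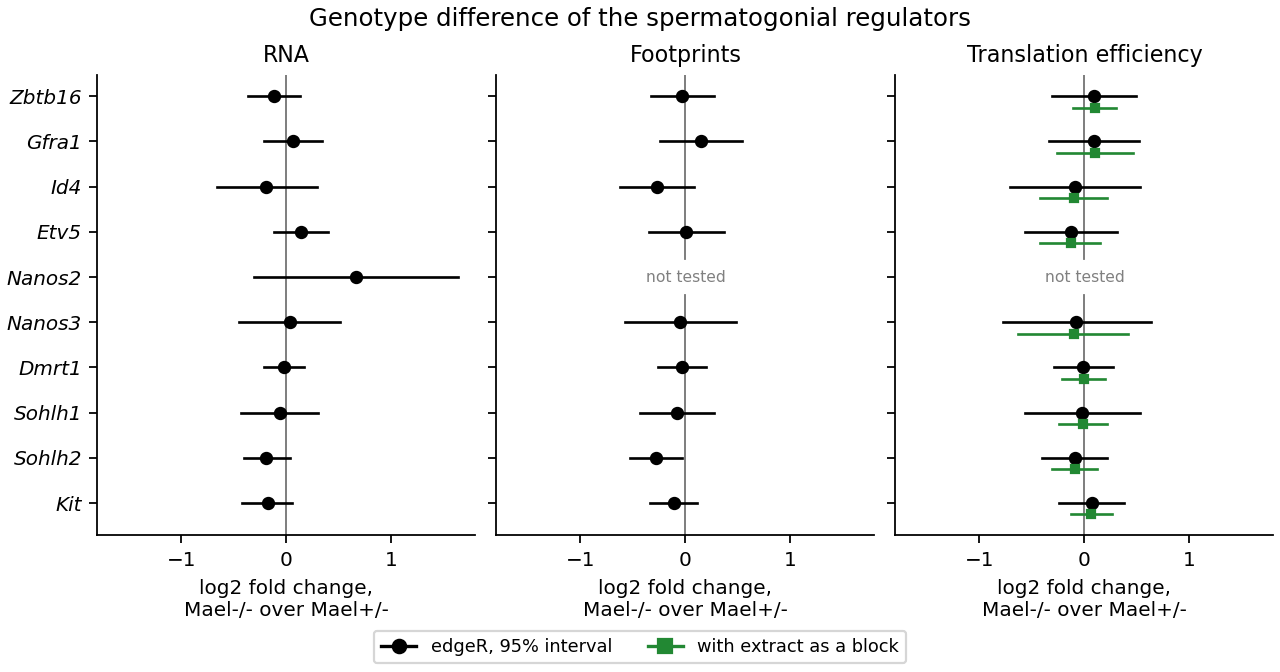
Log2 fold change between the genotypes (*Mael*-/- over *Mael*+/-, horizontal axis) of each member in RNA, footprints and translation efficiency, with 95% confidence intervals from edgeR (black) and from the fit with each extract as a block (green, translation efficiency only). All intervals cross 0 except that of *Sohlh2* in footprints, from -0.53 to -0.03, and *Nanos2* has the widest.

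*Gfra1* encodes the receptor for glial cell line-derived neurotrophic factor that marks the most primitive spermatogonia. Its RNA level was 19.1, 16.8 and 16.8 CPM in *Mael*+/- replicates 1 to 3 and 16.5, 18.4 and 20.0 CPM in *Mael*-/-. Its footprints were 8.91, 10.1 and 7.71 CPM against 10.2, 8.38 and 10.9 CPM, from 78 to 135 counts a library. The genotypes overlapped in both assays, with the highest value in *Mael*-/- replicate 3. The log2 fold change was 0.06 (SE 0.12, 95% confidence interval -0.21 to 0.34) in RNA and 0.15 (SE 0.18, -0.24 to 0.54) in footprints.

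*Etv5* encodes a transcription factor induced by this signal, which Sertoli cells also express. It had 28.3, 29.8 and 31.3 CPM in *Mael*+/- RNA and 32.5, 29.0 and 37.0 CPM in *Mael*-/- RNA. Its footprints were 23.5, 22.2 and 29.1 CPM against 30.0, 20.5 and 25.0 CPM. The genotypes overlapped, and *Mael*-/- replicate 2 was below the *Mael*+/- mean in both assays. On the log2 scale the fold change was 0.14 (SE 0.12, -0.12 to 0.40) in RNA and 0.01 (SE 0.16, -0.35 to 0.37) in footprints. The Sertoli markers summed to 6333 to 7457 CPM in *Mael*+/- and 6715 to 7341 CPM in *Mael*-/- RNA, and their part in the values of *Etv5* was not tested.

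*Id4* encodes an inhibitor of helix-loop-helix factors that marks cells with stem cell activity. It had 27.0, 15.9 and 16.1 CPM in *Mael*+/- RNA and 20.4, 15.6 and 16.1 CPM in *Mael*-/- RNA. Replicate 1 was the highest of its genotype in RNA for both genotypes. Footprints were 19.5, 15.1 and 13.8 CPM in *Mael*+/- and 13.5, 13.0 and 13.6 CPM in *Mael*-/-, so that all *Mael*-/- libraries were lower, by a small gap to *Mael*+/- replicate 3. Its log2 fold change was -0.19 (SE 0.21, -0.66 to 0.29) in RNA and -0.27 (SE 0.16, -0.62 to 0.08) in footprints. Without *Mael*+/- replicate 1, the extract rich in pachytene markers, it was 0.10 (SE 0.14) in RNA and -0.11 (SE 0.14) in footprints.

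*Zbtb16* encodes PLZF, a zinc finger repressor required to keep the stem cell pool. Its RNA level was 73.2, 97.8 and 86.3 CPM in *Mael*+/- and 78.6, 79.0 and 79.3 CPM in *Mael*-/-. Footprints were 93.7, 136 and 100 CPM against 102, 113 and 108 CPM. The *Mael*-/- libraries lay within the range of the *Mael*+/- libraries in both assays and were far closer together, with an SD of 0.373 CPM against 12.3 CPM in RNA. The log2 fold change was -0.12 (SE 0.11, -0.37 to 0.13) in RNA and -0.03 (SE 0.14, -0.33 to 0.27) in footprints. Without *Mael*+/- replicate 1, its lowest library, the RNA fold change was -0.22 (SE 0.09, edgeR unadjusted p 0.0314, adjusted p 0.703).

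*Nanos2* and *Nanos3* encode RNA-binding proteins that hold back differentiation and translation of their targets. *Nanos2* was near the limit of detection, with 5, 18 and 19 RNA counts in *Mael*+/- and 15, 16 and 20 in *Mael*-/-. It had 2, 3 and 5 footprint counts in *Mael*+/- and 11, 5 and 8 in *Mael*-/-. Scaled to 0.217, 0.658 and 0.718 CPM against 1.09, 0.793 and 0.729 CPM in RNA, the *Mael*-/- libraries were all higher, the nearest of them by a margin far smaller than the spread within a genotype. The RNA log2 fold change was 0.66 (SE 0.44, -0.31 to 1.63, edgeR adjusted p 0.982), and without *Mael*+/- replicate 1 it was 0.30 (SE 0.38). In footprints *Nanos2* also did not overlap, but only by 0.488 CPM in *Mael*+/- replicate 3 against 0.499 CPM in *Mael*-/- replicate 2, each from 5 counts. It is not among the 9 members tested in footprints, so the share of genes given above does not cover it. With no filter on low counts its footprint log2 fold change was 1.06 (SE 0.59, -0.20 to 2.31, edgeR adjusted p 0.966). At 2 to 20 counts a library, precision was low: the RNA interval ran from 0.804-fold to 3.10-fold.

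*Nanos3* was better covered, with 34 to 190 counts a library. Its RNA level was 5.41 ± 1.37 CPM (SD, n = 3) in *Mael*+/- and 5.51 ± 0.729 CPM in *Mael*-/- RNA. Its footprints were 4.56, 6.34 and 6.05 CPM in *Mael*+/- and 6.66, 5.49 and 4.03 CPM in *Mael*-/-. *Mael*-/- replicate 3 was the highest of its genotype in RNA, at 6.31 CPM, and the lowest in footprints, where it had 34 counts. The log2 fold change was 0.03 (SE 0.21, -0.45 to 0.51) in RNA and -0.05 (SE 0.24, -0.58 to 0.48) in footprints.

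**Figure D3:**
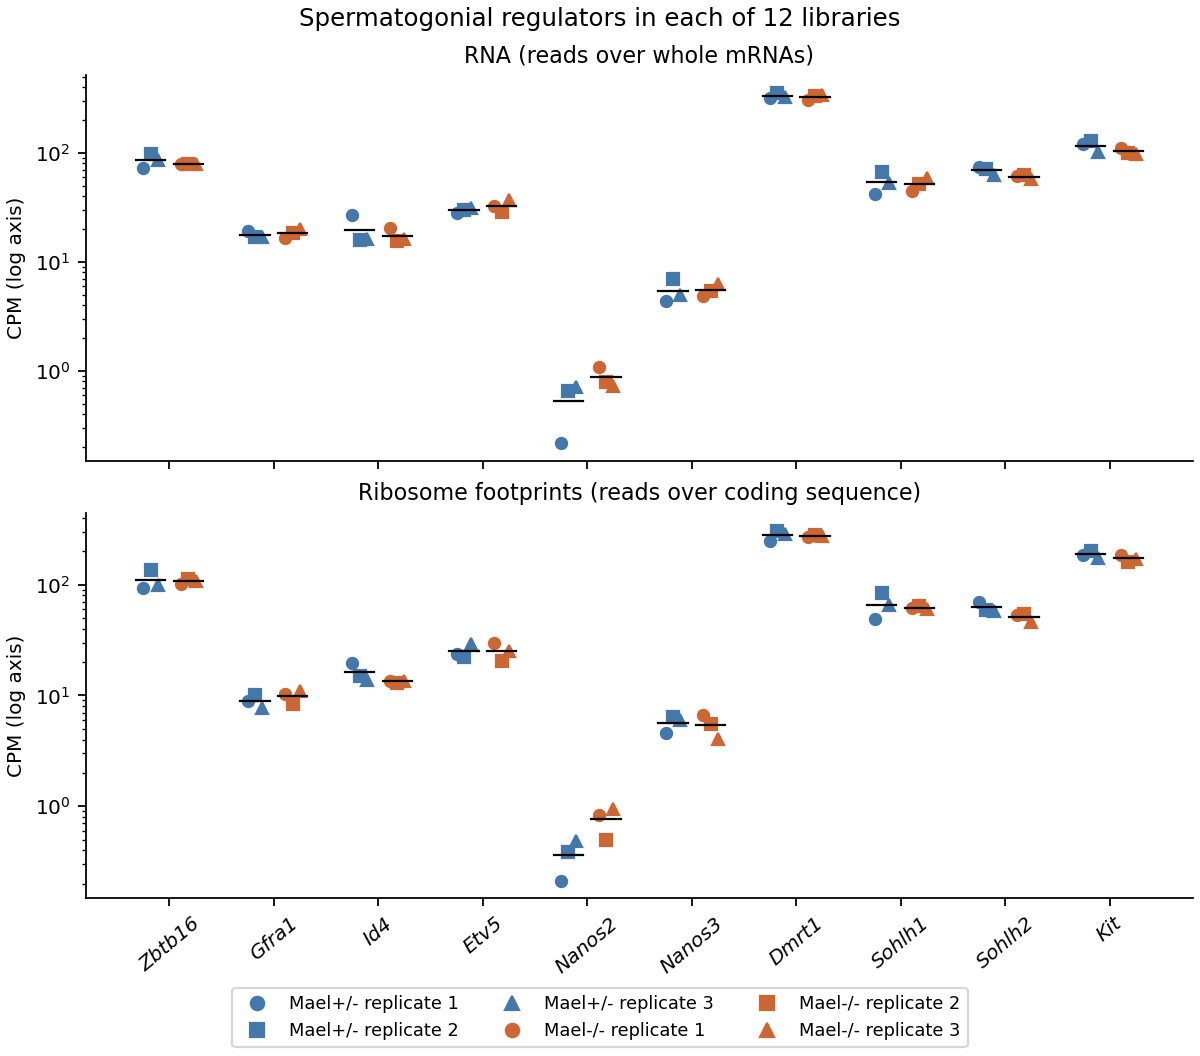
CPM (log axis) of each member in the RNA libraries (top) and the footprint libraries (bottom), with a symbol for each replicate and a bar at each genotype's mean. *Dmrt1* is the highest in both assays and *Nanos2* the lowest, and the means of the genotypes lie close together for every gene but *Nanos2*.

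*Dmrt1* encodes a DM-domain transcription factor that holds spermatogonia in mitosis, and Sertoli cells also express it. It had 316, 356 and 323 CPM in *Mael*+/- RNA and 309, 335 and 339 CPM in *Mael*-/- RNA. Footprints were 245, 307 and 286 CPM against 269, 279 and 274 CPM. The genotypes overlapped, and the *Mael*-/- footprint values lay within the *Mael*+/- range. Its log2 fold changes were the best bounded of the members in RNA, at -0.02 (SE 0.09, -0.21 to 0.17), and were -0.03 (SE 0.10, -0.26 to 0.20) in footprints. In fold, the RNA interval ran from 0.865 to 1.13.

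*Sohlh1* and *Sohlh2* encode a pair of germ cell helix-loop-helix factors that bind each other and promote differentiation, in part by raising *Kit*. *Sohlh1* had 42.0, 67.2 and 52.7 CPM in *Mael*+/- RNA and 44.8, 51.4 and 58.3 CPM in *Mael*-/- RNA. Its footprints were 49.3, 83.2 and 65.1 CPM against 60.9, 64.7 and 60.7 CPM. *Mael*+/- replicate 1 was its lowest and replicate 2 its highest library in both assays, and the genotypes overlapped. For *Sohlh1* the log2 fold change was -0.06 (SE 0.16, -0.43 to 0.30) in RNA and -0.08 (SE 0.16, -0.43 to 0.27) in footprints. Without *Mael*+/- replicate 1 it was -0.21 (SE 0.13) in RNA and -0.25 (SE 0.11, edgeR unadjusted p 0.0453, adjusted p 0.80) in footprints.

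*Sohlh2* had 74.4, 71.0 and 62.4 CPM in *Mael*+/- RNA and 61.1, 63.1 and 58.1 CPM in *Mael*-/- RNA. Its footprints were 69.4, 59.4 and 57.6 CPM against 53.7, 53.8 and 45.9 CPM. All *Mael*-/- libraries were lower in footprints, while in RNA *Mael*-/- replicate 2 lay above *Mael*+/- replicate 3. *Sohlh2* was the member nearest to a call, with a log2 fold change of -0.28 (SE 0.11, -0.53 to -0.03, edgeR unadjusted p 0.0311, adjusted p 0.999) in footprints and -0.19 (SE 0.10, -0.40 to 0.03, adjusted p 0.944) in RNA. Without *Mael*+/- replicate 1, its highest library, the footprint value was -0.19 (SE 0.11, unadjusted p 0.0928) and the RNA value -0.14 (SE 0.10). Unlike *Sohlh2*, its partner *Sohlh1* was lowest in that extract.

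*Kit* encodes the receptor for stem cell factor that marks differentiating spermatogonia, and Leydig cells also express it. Its RNA level was 120, 128 and 103 CPM in *Mael*+/- and 112, 99.7 and 97.6 CPM in *Mael*-/-. Footprints were 186, 203 and 173 CPM against 186, 161 and 171 CPM. The genotypes overlapped in both assays, although *Mael*-/- replicates 2 and 3 were the lowest of all libraries in each. The log2 fold change was -0.18 (SE 0.10, -0.42 to 0.05) in RNA and -0.11 (SE 0.10, -0.34 to 0.11) in footprints. Leydig markers summed to 324 to 539 CPM in *Mael*+/- and 272 to 528 CPM in *Mael*-/- RNA, and their part in the values of *Kit* was not tested.

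Translation efficiency of the 9 members tested differed between the genotypes by -0.13 (*Etv5*) to 0.09 (*Gfra1* and *Zbtb16*) on the log2 scale, with SE from 0.13 for *Dmrt1* to 0.33 for *Nanos3*. RNA and footprints came from the same extracts, and the fit with each extract as a block gave similar values with narrower intervals, such as 0.10 (SE 0.10, -0.11 to 0.30) for *Zbtb16* against 0.09 (SE 0.19, -0.31 to 0.49) without it. For *Kit* the blocked value was 0.06 (SE 0.09, -0.13 to 0.26) and for *Sohlh1* -0.01 (SE 0.11, -0.24 to 0.22). With the block, edgeR called 0 of 9 members, against 0 of 13448 genes. At an unadjusted p under 0.05 the blocked fit had 0 members, against 282 of these genes.

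Per kilobase of annotated mRNA, the members' RNA levels spanned a wide range. *Dmrt1* stood at 146 ± 7.62 CPM per kb (SD over 6 libraries), above 97.6% of genes tested. *Sohlh1* followed at 40.9 ± 7.10, *Sohlh2* at 27.7 ± 2.68 and *Kit* at 21.2 ± 2.35 CPM per kb. These genes, known from the passage to differentiating spermatogonia, were the most abundant members. The ranges of neighbours in this order did not overlap from *Dmrt1* to *Kit*, by narrow gaps between *Sohlh1*, *Sohlh2* and *Kit*. Sertoli cells also express *Dmrt1*, and their part in its level was not tested.

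Among the genes of undifferentiated spermatogonia, *Zbtb16* had 10.6 ± 1.11 CPM of RNA per kb, at the 50.2nd percentile of genes tested. *Nanos3* (7.48 ± 1.35), *Etv5* (6.37 ± 0.645), *Id4* (4.67 ± 1.14) and *Gfra1* (3.84 ± 0.309 CPM of RNA per kb) followed, with ranges that overlapped from each to the next. *Nanos2*, at 0.487 ± 0.196 CPM per kb, was below all of them. Whole testis holds many cell types, so these levels mix a gene's share of cells with its RNA in each.

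Per kilobase of coding sequence, footprints gave another order. *Dmrt1* remained highest, at 246 ± 18.2 CPM per kb, and *Gfra1* was the lowest tested, at 6.66 ± 0.875. *Kit* (61.3 ± 5.02), *Sohlh1* (59.6 ± 10.2) and *Zbtb16* (53.8 ± 7.38 CPM of footprints per kb) had overlapping ranges. *Sohlh2* followed at 40.3 ± 5.54, and *Id4* stood at 30.3 ± 5.03, above *Etv5* at 16.3 ± 2.47 and *Nanos3* at 10.3 ± 1.93. In footprints *Id4* and *Etv5* no longer overlapped.

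The ratio of footprint density to RNA density, relative to the median gene of each extract, set the members apart from each other far more than it set the genotypes apart. *Id4* had a log2 ratio of 1.84 ± 0.19 (SD over 6 extracts), above 97.1% of 13396 genes, and *Zbtb16* one of 1.46 ± 0.11, above 94.4%. Of *Id4*, the extracts held log2 ratios of 1.68, 2.08 and 1.93 in *Mael*+/- and 1.56, 1.89 and 1.93 in *Mael*-/-. Of *Zbtb16*, they held 1.42, 1.54 and 1.29 against 1.44, 1.58 and 1.53. Both genes were above the other members in every extract.

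*Kit* (0.66 ± 0.07) and *Etv5* (0.48 ± 0.19) also had log2 density ratios above the median gene in every extract. *Gfra1* (-0.08 ± 0.20) and *Dmrt1* (-0.13 ± 0.08) lay close to it. *Sohlh1* (-0.33 ± 0.12) and *Sohlh2* (-0.34 ± 0.09) were below it in every extract, at the 30.6th and 30.3rd percentile of genes. *Nanos3* had the lowest mean log2 density ratio, -0.41 ± 0.37, and the widest range, from 0.02 in *Mael*-/- replicate 1 to -1.05 in *Mael*-/- replicate 3. Extracts of the genotypes overlapped for each of the 9 members, and the genotype means of the log2 density ratio were, for example, 1.41 and 1.52 for *Zbtb16* and -0.33 and -0.33 for *Sohlh1*.

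**Figure D4:**
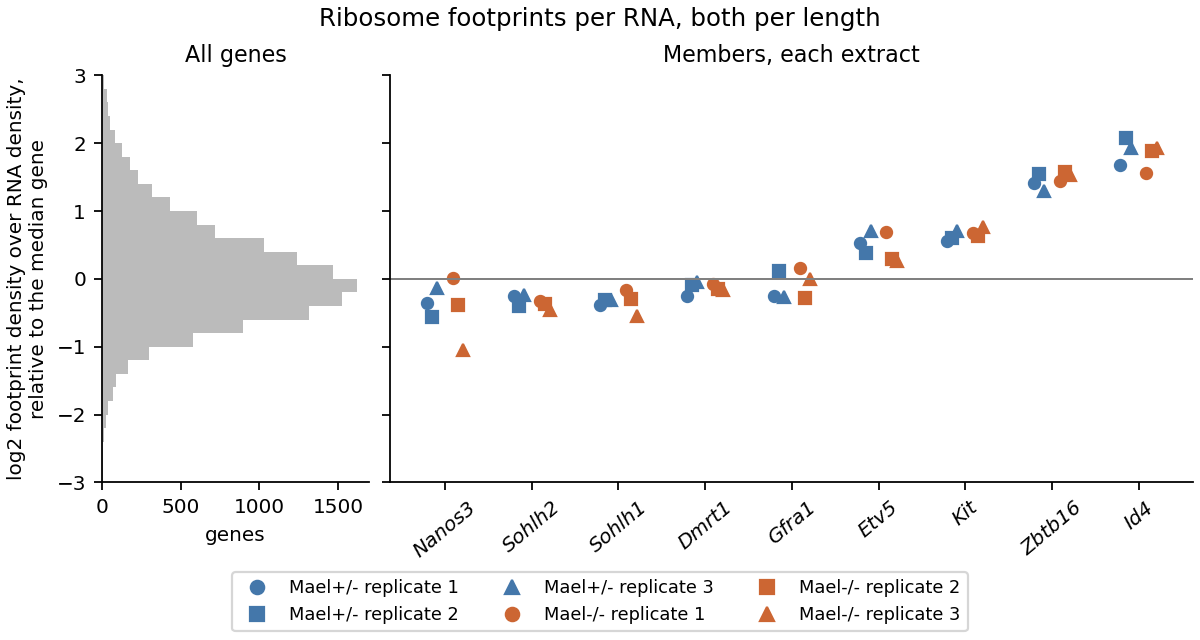
Log2 ratio of footprint density to RNA density, relative to the median gene of the extract, for all genes (left, histogram of the mean over 6 extracts, with 135 of 13396 genes outside the plotted range) and for the 9 members in each extract (right). *Id4* and *Zbtb16* lie between 1.29 and 2.08 in every extract, and the genotypes are mixed for each gene.

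This order leans on the annotated lengths. The mRNA of *Id4* is 3963 bases long with 486 coding bases, a quotient of 8.15 that exceeds 98.7% of genes, and that of *Zbtb16* is 7782 bases with 2022 coding bases. *Nanos3* (730 bases, 537 coding) and *Sohlh1* (1289 bases, 1074 coding) have little untranslated sequence. Without division by length, the log2 ratio of footprint to RNA level was -0.23 ± 0.19 for *Id4*, at the 36.6th percentile, and 0.48 ± 0.11 for *Zbtb16*, at the 77.4th. *Kit* was then the highest, at 0.80 ± 0.07, and *Gfra1* the lowest, at -0.85 ± 0.21. Across 13396 genes, the quotient of mRNA to coding length had a Spearman correlation of 0.45 with the density ratio and of -0.43 with the ratio without length. Which annotated isoforms these testes used was not tested. *Kit* and *Zbtb16* were above the median gene on both scales, and *Dmrt1* and *Sohlh2* below it on both. *Gfra1* was below it without division by length, while its log2 density ratio ran from -0.28 to 0.16 across extracts.

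Members differed in how much they varied among extracts of one genotype. The SD of log2 CPM within genotypes ranged from 0.0827 for *Dmrt1* to 0.678 for *Nanos2* in RNA, against a median of 0.159 over genes tested. *Id4*, *Sohlh1* and *Nanos3* were more variable than most genes in RNA (84.9th, 77.6th and 78.3rd percentile), and *Dmrt1* and *Sohlh2* less (13.8th and 23.4th). In footprints *Id4* stood nearer the middle, at the 57.1st percentile, with *Sohlh1* at the 76.8th and *Nanos3* at the 82.2nd. *Dmrt1* and *Sohlh2* stood at the 27.1st and 35.6th percentile in footprints.

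The order of the *Mael*+/- extracts was often shared by both assays, in the members and in genes at large. The highest *Mael*+/- replicate was the same in RNA and footprints for 8 of 9 members tested in both, against 64.0% of 13448 genes, and the lowest for 6 of 9, against 56.4%. *Zbtb16*, *Nanos3*, *Dmrt1* and *Sohlh1* were lowest in replicate 1 and highest in replicate 2 in both assays, whereas *Id4* and *Sohlh2* were highest in replicate 1 in both. Deviations from the genotype mean had the same sign in RNA and footprints in 19 of 27 values (70.4%) of the 9 members in *Mael*+/- extracts and in 18 of 27 (66.7%) in *Mael*-/- extracts, against 72.1% and 56.5% over all genes tested. Replicate 1 of *Mael*+/- is the extract rich in pachytene markers, and the part of its cell mixture in these deviations was not tested.

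**Figure D5:**
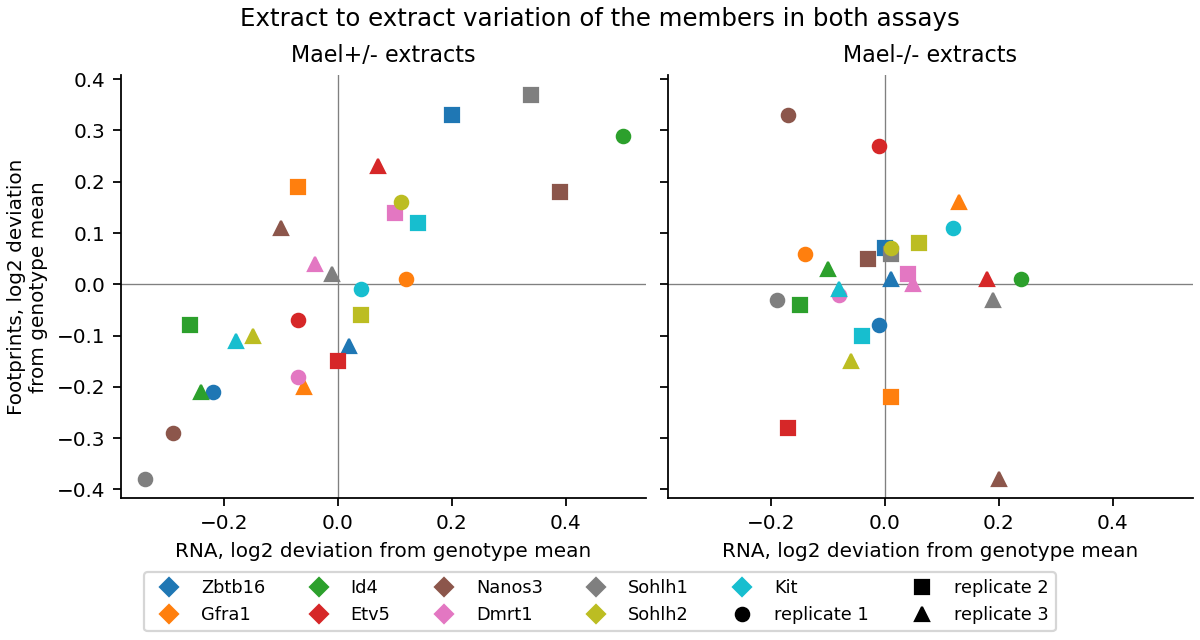
Deviation of each extract from the mean of its genotype, in log2 CPM, for RNA (horizontal axis) and footprints (vertical axis), with a colour for each of 9 members and a symbol for each replicate. In *Mael*+/- extracts (left) the largest deviations, such as 0.50 in RNA and 0.29 in footprints for *Id4* in replicate 1, have the same sign in both assays, and in *Mael*-/- extracts (right) *Nanos3* deviates in opposite directions.

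Other genes of the pathway were read from fixed lists, in which edgeR and DESeq2 called 0 genes in each contrast, with 0 genes at an unadjusted p under 0.05 in either. The lists hold 5 genes of ligands and the coreceptor RET. *Gdnf*, the ligand of GFRA1, had 14.5 ± 3.45 CPM (SD, n = 3) in *Mael*+/- and 13.4 ± 0.849 CPM in *Mael*-/- RNA, and its coreceptor *Ret* had 31.1 ± 4.01 and 31.0 ± 1.74 CPM. *Kitl*, the ligand of KIT, had 242 ± 53.5 and 240 ± 4.01 CPM. *Fgf2* and *Csf1*, growth factors of the niche, had RNA log2 fold changes of -0.41 (SE 0.27) and 0.31 (SE 0.15, edgeR adjusted p 0.938).

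Of 23 other genes of undifferentiated spermatogonia, 20 were tested in RNA and 18 in footprints. In RNA 10 had a positive and 10 a negative fold change, with a median of -0.01. *Sall4*, a zinc finger factor that partners PLZF, had 76.1 ± 15.6 CPM in *Mael*+/- and 71.0 ± 1.29 CPM in *Mael*-/- RNA. *Lin28a*, an RNA-binding protein that blocks let-7 processing, had 93.7 ± 15.0 and 90.3 ± 11.9 CPM. *Foxo1* (47.3 ± 3.20 and 44.4 ± 5.92 CPM of RNA), *Bcl6b* (9.83 ± 1.07 and 10.3 ± 1.58), *Neurog3* (5.34 ± 1.25 and 5.51 ± 0.483), *Taf4b* (216 ± 24.9 and 221 ± 13.2) and *Uchl1* (339 ± 48.5 and 340 ± 29.4) overlapped between the genotypes as well. *Foxo1*, a factor of stem cell maintenance, had a log2 density ratio of 2.18 ± 0.17, above that of *Id4*.

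Of 8 other genes of differentiating spermatogonia, 3 had a positive and 5 a negative RNA fold change (median -0.06). *Stra8*, which retinoic acid induces, had 91.9 ± 17.8 CPM in *Mael*+/- and 99.0 ± 11.6 CPM in *Mael*-/- RNA. *Dnmt3b*, a DNA methyltransferase, had 103 ± 20.2 and 87.5 ± 7.88 CPM, and *Ccnd2*, a cyclin, 102 ± 8.45 and 91.5 ± 9.97 CPM. Among 4 genes of germ cells at large, 1 had a positive and 3 a negative RNA fold change (median -0.12), with log2 fold changes of -0.31 (SE 0.19) for *Ddx4*, -0.13 (SE 0.19) for *Dazl*, -0.11 (SE 0.17) for *Rnf17* and 0.09 (SE 0.09) for *Tex14*.

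Marker lists of other cells are given for the mixture behind these values. Of peritubular markers 5 of 5 had a positive fold change in RNA and in footprints, and their RNA sums were 879 to 923 CPM in *Mael*+/- against 991 to 1042 CPM in *Mael*-/-, without overlap. Their footprint sums overlapped, at 1145 to 1417 CPM and 1394 to 1722 CPM. Of 5 macrophage genes found, 5 had a positive fold change in both assays, with overlapping sums. Their RNA sums were 136, 123 and 202 CPM in *Mael*+/- replicates 1 to 3 and 201, 189 and 192 CPM in *Mael*-/-. Of 8 pachytene genes tested in RNA, 8 had a negative fold change, with *Piwil1* at 34.5 ± 38.3 CPM in *Mael*+/- and 7.66 ± 0.727 CPM in *Mael*-/-. In RNA edgeR called 0 genes of these lists. An unadjusted p under 0.05 was found for 6 of 8 pachytene genes, against 5.4% of all genes tested. It was also found for 1 of 6 Leydig, 1 of 5 peritubular, 1 of 5 macrophage and 1 of 8 early meiotic genes. In footprints edgeR called 0 genes of these lists as well. There 5 of 7 pachytene and 2 of 8 early meiotic genes had an unadjusted p under 0.05, against 4.33% of genes. DESeq2 also called 0 genes of these lists in RNA. It had 8 pachytene, 2 macrophage, 1 Leydig and 1 early meiotic gene at an unadjusted p under 0.05, against 800 of 17742 genes. With the replicate number as a block, edgeR called the pachytene gene *Adam2*, with a log2 fold change of -2.96 (SE 0.44, adjusted p 0.0144) in RNA and -3.55 (SE 0.48, adjusted p 0.00994) in footprints. Without the RNA library of *Mael*+/- replicate 1, edgeR called 3 genes of these lists in RNA, *Adam2* at -1.96 (SE 0.29, adjusted p 0.00273), *Hspa2* of the pachytene list at -0.43 (SE 0.09, adjusted p 0.0498) and *Meiob* of the early meiotic list at 0.71 (SE 0.15, adjusted p 0.0492). With all libraries the log2 fold change of *Meiob* was 0.06 (SE 0.35) in RNA and -0.25 (SE 0.35) in footprints. Of 8 early meiotic genes, 5 had a negative fold change in RNA (median -0.29) and 6 in footprints (median -0.5). Early meiotic markers summed to 583 to 1474 CPM in *Mael*+/- and 545 to 773 CPM in *Mael*-/- RNA. The part of these cells in the values of the members was not tested.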

How the data were processed

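Per the labels and the study's methods, the authors removed footprint reads of ribosomal DNA with Bowtie 1.2.2, aligned reads to mm10 with STAR 2.6.0c and counted them with featureCounts (Subread 1.6.4), taking whole mRNAs for RNA libraries and the coding sequence for footprint libraries. The deposited table holds raw counts, with no normalization. The treatment of reads that map to several places, and of duplicate reads, is not given in the sources used here, so a molecule may be counted more than once. Tables of the authors' DESeq2 comparisons (fold changes, standard errors, p-values) were not used.

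The 20620 gene rows were tested in R 4.3.3 with the quasi-likelihood F-test of edgeR 4.0.16, after TMM scaling and the default filter on low counts within each assay, and Benjamini-Hochberg adjustment over all genes tested. For translation efficiency, an interaction term of genotype with assay was tested over 12 libraries. The study took RNA and footprints from the same extracts, and libraries of the same genotype and number were treated as the same extract. The correlation of their deviations from the group mean across 13205 genes was 0.76, 0.61 and 0.64 in *Mael*+/- and 0.24, 0.20 and 0.21 in *Mael*-/-. The same correlation was not computed for RNA and footprint libraries of unlike number, so these values do not establish the pairing. Lengths are unions of curated RefSeq mRNA exons on GRCm38, found for 20411 genes. Density ratios used 0.5 added to each count. The tests were first tested on simulated data.

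The members and the gene lists were chosen with earlier results of these data known. Named are the 10 members, *Mael*, any called gene of the lists, and listed genes picked by role. *Adam2*, *Hspa2*, *Meiob*, *Fgf2*, *Csf1*, *Tex14* and *Rnf17* were named outside this rule, after their values were seen. The alternatives were DESeq2 1.42.0, median-of-ratios scaling, other filters, a replicate block, other lengths, scaling without TMM and leaving out each library.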

Additional observations from a re-analysis of the deposited data

How the results depend on the processing

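The counts of called members, and of called genes of the ligand, spermatogonial and germ cell lists, were 0 in each contrast under each of the alternatives run, and no member passed in any of them (smallest adjusted p 0.429). Of 370 member fold changes under these alternatives, 327 kept their sign and 43 changed it, each time on leaving out 1 library, in 18 of 28 results whose value was at most 0.19 on the log2 scale either way. These signs are therefore not settled. On leaving out each library in turn, the RNA log2 fold change ran from -0.01 to 0.13 for *Gfra1*, from -0.32 to 0.10 for *Id4*, from -0.10 to 0.26 for *Nanos3*, from -0.05 to 0.04 for *Dmrt1* and from -0.21 to 0.12 for *Sohlh1*. In footprints it ran from -0.13 to 0.15 for *Zbtb16*, from -0.14 to 0.14 for *Etv5*, from -0.24 to 0.11 for *Nanos3*, from -0.12 to 0.04 for *Dmrt1* and from -0.25 to 0.12 for *Sohlh1*. In translation efficiency it ran from -0.01 to 0.27 for *Zbtb16*, from -0.01 to 0.19 for *Gfra1*, from -0.38 to 0.08 for *Id4*, from -0.28 to 0.00 for *Etv5*, from -0.30 to 0.08 for *Nanos3*, from -0.10 to 0.06 for *Dmrt1*, from -0.20 to 0.18 for *Sohlh1* and from 0.00 to 0.16 for *Kit*. Leaving out both libraries of *Mael*+/- extract 1, chosen after seeing the data, gave 0 called members in translation efficiency and -0.22 (SE 0.20) for *Id4*.

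Over all genes, DESeq2 called 66 in RNA (34 higher) and 26 in footprints (8 higher), where edgeR called 17 (16 higher) and 8 (7 higher). The genotypes share only a replicate number: the deviations of same-numbered libraries correlated at 0.011 to 0.22 in RNA and 0.037 to 0.19 in footprints, and 3 of 6 RNA and 4 of 6 footprint libraries correlated best with their own number. With this number as a replicate block, 50 genes were called in RNA (26 higher) and 23 in footprints (8 higher), with 0 members among them. Of the marker lists, the pachytene gene *Adam2* was called with this block in RNA and footprints, and *Adam2*, *Hspa2* and *Meiob* in RNA without *Mael*+/- replicate 1. With the extract as a replicate block, 0 genes were called in translation efficiency. *Nanos2*, at 2 to 20 counts a library, was measured with low precision.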
